A study of Solanum lycopersicum with 32 samples.

Results

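The genes described here form a block of neighbouring identifiers in the middle of tomato chromosome 5. Solyc identifiers number the predicted genes of tomato in their order along each chromosome, and the block runs from Solyc05g016000 to Solyc05g039999. Its members are the 177 rows of this range that held 10 or more reads in at least 2 of the 32 stem RNA-seq libraries. They are 177 of 467 rows in the range and 177 of 22610 genes that passed the same minimum over all chromosomes. The members were thus chosen by their read counts and by position, and the position was itself proposed with results of these libraries known. Shares of the block are therefore given beside those of all genes as a description, and nothing is read from the excess alone.

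As background, the middle of each tomato chromosome is pericentromeric heterochromatin, a gene-poor stretch in which crossing over is rare. A plant tends to inherit such a stretch as a single block from a parent chromosome. The deposited files do not pair the identifiers with names or functions, so the members are called by their identifiers and no role is given to them.

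The stems came from 5 experiments on florigen, which in tomato is the travelling protein product of SINGLE FLOWER TRUSS (SFT) and brings plants to flower, with 2 libraries in each of 16 groups. In the overexpression experiment these were wild type (WT), sft mutants and libraries labelled pSFT-SFT. Grafts were WT//WT, sft//sft, 35S:SFT//WT, 35S:SFT//sft and 35S:SFT//sp, written donor//recipient, where 35S is the strong cauliflower mosaic virus promoter and sp is the self-pruning mutant. WT, 35S:SFT and 35S:TFUL2 (FUL2, a FRUITFULL-clade MADS-box gene, under 35S) made up the FUL experiment, and 35S:GinFT, with no WT of its own, the Ginkgo experiment. The heat-shock experiment held sft plants without a transgene and sft plants with pHS:FT (Arabidopsis FT under a heat-shock promoter), each heated or unheated, so that all 4 of its groups carry sft. The labels give neither cultivar, plant age nor the number of transgenic lines. They name stem as the tissue, which was not checked against marker genes because the identifiers have no names. The protocol speaks of mid-segments of internodes from 5 plants, taken in duplicate, without saying whether the duplicates are different plants, and p-values below reflect no more than the spread between these duplicates, which may be technical.

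Library totals lay between 16583755 and 45790153 reads, so that 3 reads, the limit that a count of 0 allows, correspond to 0.0649 to 0.174 CPM (counts scaled to the same library total). That limit covers counting error only. The members took 0.433% to 0.496% of a library. SFT transcript went against the pSFT-SFT label, with 33 and 35 reads against 114 and 74 in their WT. FUL2 transcript was higher there (488 and 555 reads against 71 and 54), as in 35S:SFT (833 and 997 against 52 and 135). SFT stood at 0 reads in both WT libraries of the FUL experiment against 1650 and 1719 in 35S:SFT. A pair of libraries stood apart from the other library of their group in the transgene rows. Replicate 1 of 35S:SFT//sp held 150 SFT reads against 25 in replicate 2. Replicate 1 of unheated sft held 12 reads of the Arabidopsis FT row against 0 in replicate 2. The main counts for the groups that hold these libraries are given with and without them. Comparisons of other groups of the same experiment share their estimate of the spread and were not refitted without them.

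The block was sparsely read. Of its 467 rows, 37.9% passed the read minimum, against 65.1% of the 34728 rows of the first table, and 42.4% held 0 reads in every library, against 19.3% of all rows. The members were unevenly spread over the range, with 73 between Solyc05g016000 and Solyc05g018999, 86 between Solyc05g019000 and Solyc05g026999, and 18 between Solyc05g027000 and Solyc05g039999. The first member was Solyc05g016030 (805 to 2502 reads per library) and the last was Solyc05g039990 (29 to 109 reads). Just outside these limits lay Solyc05g015980, with 972 to 3294 reads, and Solyc05g040040, with 1 to 18. At the read minimum, 5 members reached 10 reads in exactly 2 libraries, none above 22 reads. A further 5 rows reached it in 1 library and are not members (Solyc05g017910, Solyc05g021370, Solyc05g024420, Solyc05g025580 and Solyc05g025620).

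For the account of which genes were read where, a group was taken to read a gene when both its libraries held 10 or more reads, and not to read it when both held 3 or fewer. Any other outcome was left undecided. By this measure 108 members were read in all 16 groups. Another 36 were read in at least 1 whole group and not read in at least 1 other, which is 20.3% of the members. The share over all genes past the minimum was 8.74%, over the rest of chromosome 5 it was 9.68% (132 of 1364 genes), and over all genes outside the block 8.65% (1941 of 22433). Genes with identifiers of chromosome 00 had a like share, 20.9% (33 of 158). The members were also read at lower levels, with a median of 5.36 CPM against 14 over all genes past the minimum. How far level accounts for the share was not tested. The other 33 members fell into neither class, and 8 members in all were not read in any whole group. In whole stems, a transcript made in fewer cells and one made at a lower level per cell cannot be told apart, which holds for every level below.

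Among these 36 members, 17 shared 1 arrangement of the groups or its mirror wherever their state was decided, and 19 did not. Solyc05g021180 had it in all 16 groups. It stood at 0 reads in all 8 libraries of pSFT-SFT, WT of the FUL experiment, 35S:SFT and 35S:GinFT. In the other 12 groups it was read in every library, with 283 and 276 reads in WT of the overexpression experiment, 217 and 181 in sft, 223 and 144 in WT//WT, 216 and 129 in sft//sft, and 39 and 48 in 35S:TFUL2. Its lowest values among these groups were the 10 and 32 reads of 35S:SFT//sp. Groups that carry the label WT thus stood on both sides of the arrangement, as did the transgenic groups of the FUL experiment.

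The same 4 groups failed to read, and the same 12 groups read, Solyc05g016250, Solyc05g025730 and Solyc05g032670. Solyc05g032670 stood at 0 reads in the 8 libraries of those 4 groups and between 142 and 346 reads in the 24 libraries of the other groups. The lowest of these came from unheated pHS:FT and the highest from 35S:SFT//sp, and the values left a wide gap above 0. Solyc05g016250 held 1 read in replicate 2 of pSFT-SFT, 0 in the other 7 libraries of the 4 groups, and 179 to 715 reads elsewhere. Solyc05g025730 held 2 reads in replicate 1 of 35S:GinFT, 0 in the other 7, and 23 to 88 elsewhere. A further 8 members, among them Solyc05g018770, Solyc05g021500 and Solyc05g025800, had no decided state against this arrangement, which makes 12 with Solyc05g021180. Some of the 8 were decided in few groups. Solyc05g032710 was read in 4 graft groups and not read in 35S:GinFT alone. It held 5 and 0 reads in WT of the overexpression experiment and 4 and 3 in 35S:SFT. Solyc05g021140 was read in WT//WT only and held 14 and 2 reads in pSFT-SFT.

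A mirrored set of 5 members was read in some or all of those 4 groups and not read in the others, wherever decided. Solyc05g032830 held 133 and 121 reads in pSFT-SFT, 137 and 178 in WT of the FUL experiment, 187 and 176 in 35S:SFT and 137 and 178 in 35S:GinFT. It stood at 0 reads in all other libraries except replicate 1 of 35S:SFT//sp, which held 15. Solyc05g018060 held 32 to 55 reads and Solyc05g021510 23 to 67 reads in the same 8 libraries. Elsewhere Solyc05g018060 was at 0 reads except for 5 in replicate 1 of 35S:SFT//sp, and Solyc05g021510 at 0 except for 4 there and 1 in replicate 1 of 35S:SFT//WT. Solyc05g023910 was weaker, with 8 to 20 reads in the 8 libraries and 0 or 1 read in the rest. The fifth, Solyc05g018850, was decided in only 3 groups and rests on the 18 and 20 reads of 35S:SFT against 1 to 3 in unheated pHS:FT and heated sft. A gene that is read on one side and a neighbour that is read on the other were thus found in the same stretch, as in the adjacent members Solyc05g021500 and Solyc05g021510.

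Some members among the 12 with the highest group means showed the arrangement in a weaker form or not at all. Solyc05g018770 held 1 to 3 reads in WT of the FUL experiment and 35S:SFT, 2 and 8 in pSFT-SFT, 8 and 12 in 35S:GinFT, and 36 to 98 in all other libraries. Solyc05g017970 held 0 to 3 reads in WT of the FUL experiment, 35S:SFT and 35S:GinFT, 6 and 8 in pSFT-SFT, and 9 to 88 elsewhere. Both members were thus lowest in the same 4 groups without being absent from each of them. Solyc05g018550 was not read in pSFT-SFT (3 and 2 reads) or 35S:GinFT (2 and 0), but held 7 and 7 in WT of the FUL experiment and was read in 35S:SFT (25 and 20). Solyc05g024190 was highest in pSFT-SFT (58 and 34) and 35S:SFT (58 and 73), followed by 3 to 32 reads in the remaining libraries. Its only group not read was heated sft, with 3 and 3.

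**Figure D1:**
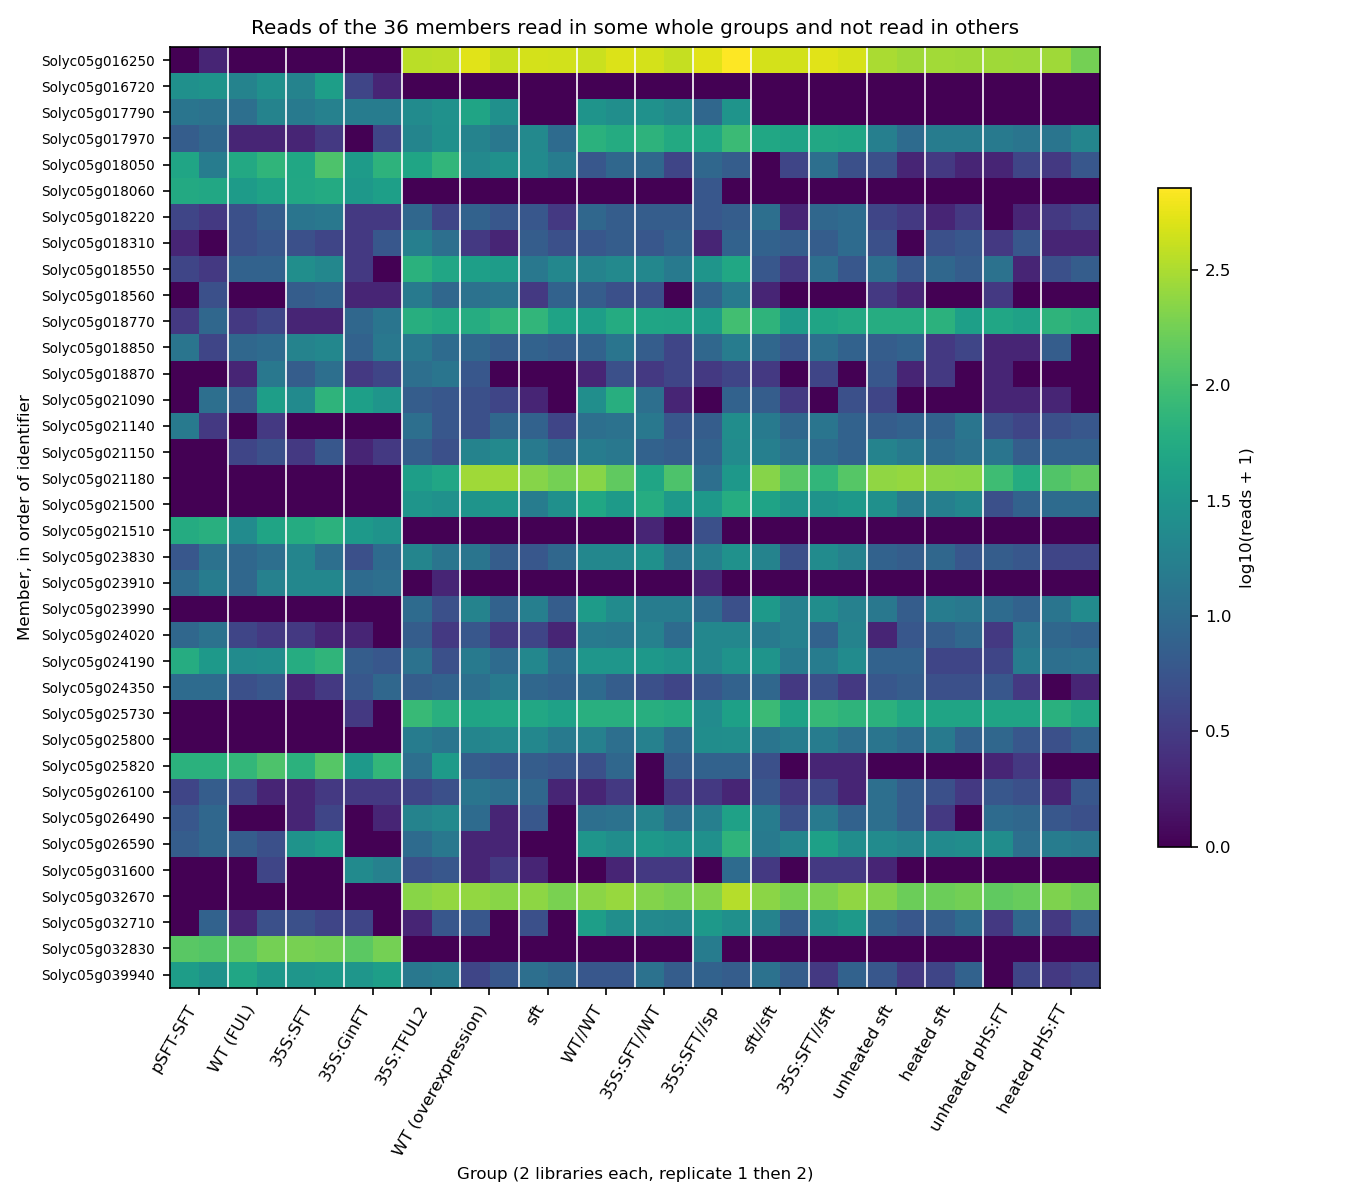
Reads of the 36 members that were read in some whole groups and not in others (rows, in identifier order) in the 32 libraries (columns, 2 per group, replicate 1 then 2), as log10(reads + 1). Dark cells hold 0 reads. The 4 groups at the left share the dark cells of Solyc05g021180 and Solyc05g032670 and the light cells of Solyc05g032830, which are dark in the other 12 groups except for the 15 reads in replicate 1 of 35S:SFT//sp.

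Counted either way and with undecided groups passed over, 17 of the 177 members had this arrangement, or 9.6%. The share was 1.41% over all genes past the minimum, 1.61% over the rest of chromosome 5 and 1.34% over all genes outside the block, where 301 genes had it. By chromosome, 39 genes had it on chromosome 5 and 39 on chromosome 11 (2.53% and 2.56%), and no other numbered chromosome held more than 32. Of the 12 switching members with the highest group mean, all of them at 2 CPM or more, 8 had the arrangement. Of the 19 whose highest group mean was under 1 CPM, 7 had it, and at such levels 10 reads and 3 reads lie close together. The switching members numbered 36 also without the libraries labelled pSFT-SFT, 38 without replicate 1 of unheated sft and 40 without replicate 1 of 35S:SFT//sp. Leaving out the latter library decided 3 of the mirrored members in all 16 groups and took Solyc05g018850, with 15 reads in replicate 2, out of the mirrored set. Of the 36 members that switched with all libraries, 16 then had the arrangement and 20 followed other divisions. Members that switched only without this library were not sorted in this way.

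**Figure D2:**
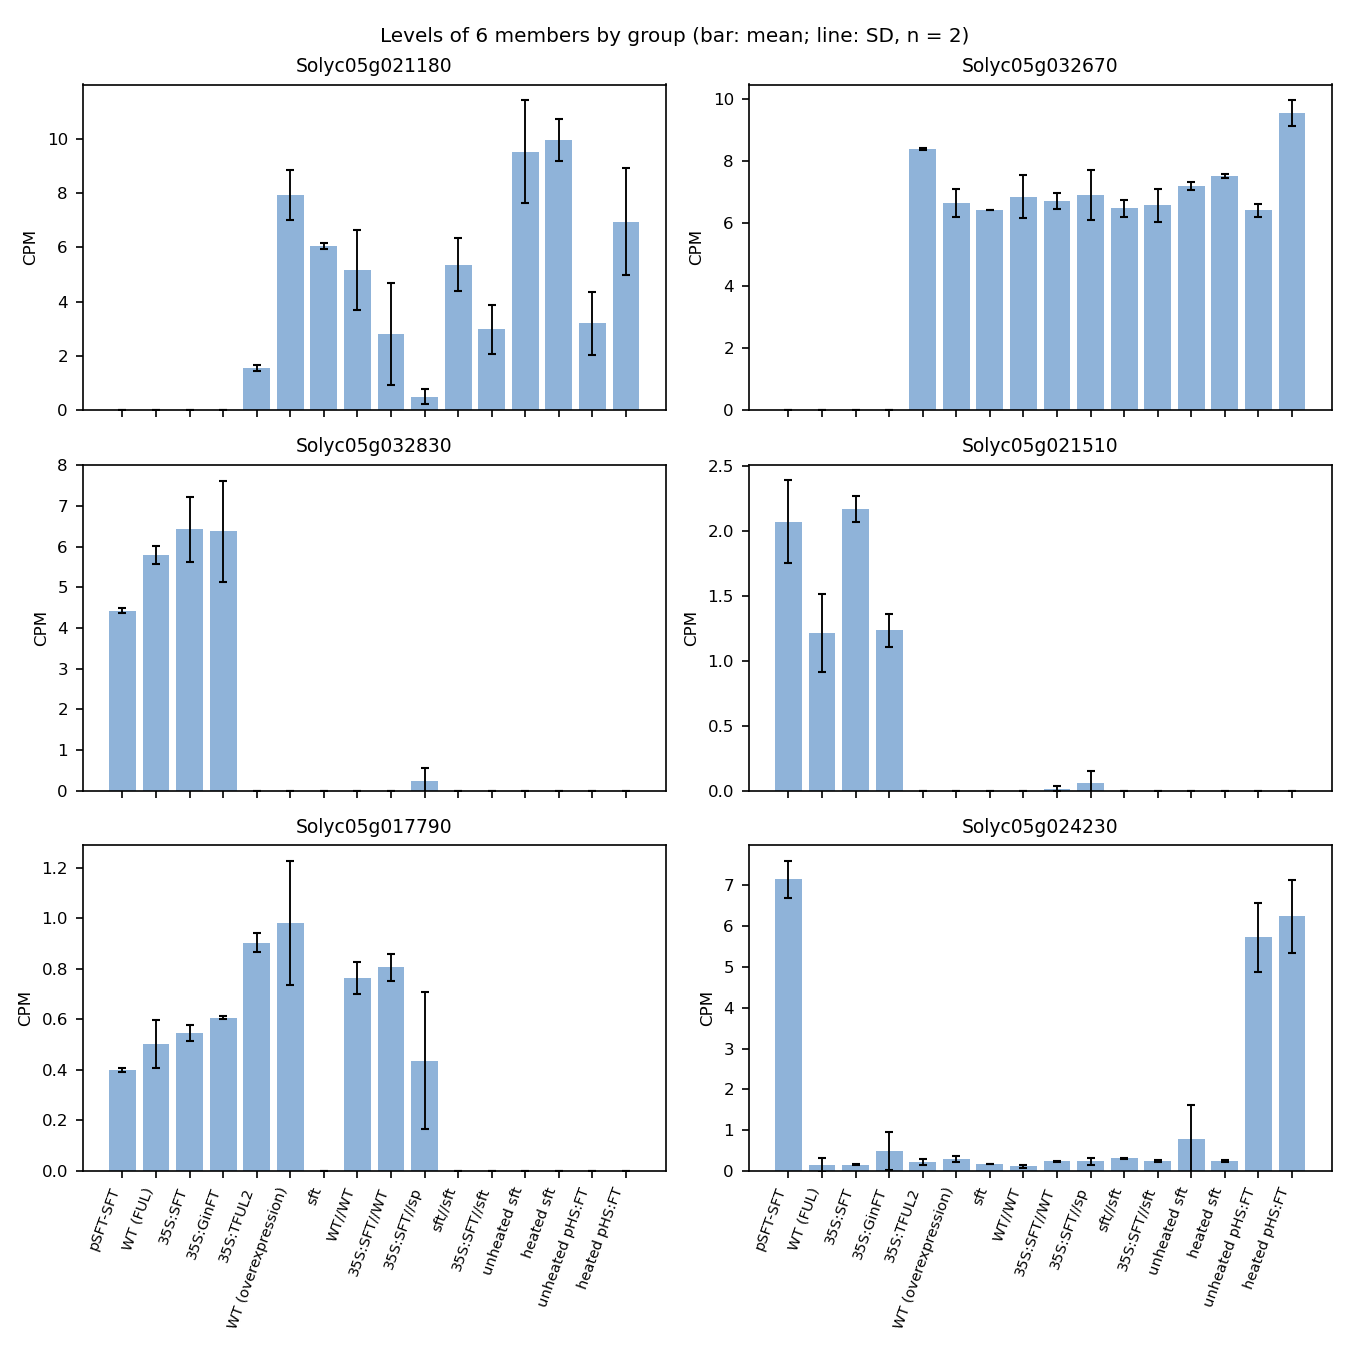
Mean CPM of 6 members in each of the 16 groups (bars start at 0; lines give the SD of n = 2 libraries), normalised separately in the 2 count tables. Solyc05g021180 and Solyc05g032670 have no bar in the 4 groups at the left, Solyc05g032830 and Solyc05g021510 have one only there apart from traces in 35S:SFT//sp and 35S:SFT//WT, and Solyc05g017790 and Solyc05g024230 follow other divisions.

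Replicate 1 of 35S:SFT//sp differed from replicate 2 in the mirrored set. Over Solyc05g018060, Solyc05g021510 and Solyc05g032830 together it held 24 reads (0.734 CPM) and replicate 2 held 0. The 8 libraries in which these members were read held 7.98 CPM or more over the 3 members, and the other 22 libraries held 0 reads, or 1 read in replicate 1 of 35S:SFT//WT. The same library held 4.58 CPM of SFT transcript against 0.541 in replicate 2. It was also the lower one for Solyc05g021180 (10 reads against 32) and Solyc05g017790 (8 against 29). What these values have to do with the graft was not tested.

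The other 19 switching members followed other divisions of the groups. Solyc05g017790 was at 0 reads in both libraries of sft, sft//sft, 35S:SFT//sft and all 4 heat-shock groups, which are the groups whose sampled stem is taken here as sft. For the overexpression sft libraries this rests on their titles, since their genotype label reads SFT. Reads were found in the overexpression WT (45 and 26), WT//WT (29 and 25), 35S:SFT//WT (27 and 21), 35S:TFUL2 (23 and 27), 35S:GinFT (15 and 15), 35S:SFT (14 and 17), pSFT-SFT (12 and 11) and WT of the FUL experiment (10 and 18). In 35S:SFT//sp it held 8 and 29 reads. Every library of the groups taken as sft thus lay below every library of the other groups. It was chosen for description after its values were seen. In the tests over all genes it was the member with the smallest adjusted p between sft and WT but was not called (at least 10.7-fold lower, adjusted p = 0.116 by edgeR's quasi-likelihood test), nor between sft//sft and WT//WT (at least 7.91-fold lower, adjusted p = 0.284). DESeq2 called it in both (adjusted p = 0.00193 and 0.0085), as did edgeR without a filter on low counts in the first (adjusted p = 0.0465). Over the alternatives tried with edgeR the adjusted p ranged from 0.0465 to 0.596 for sft and from 0.171 to 0.914 for sft//sft.

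Some members divided the groups in ways that ran between and within experiments. Solyc05g018050 was read in all groups of the overexpression and FUL experiments and in 35S:GinFT (15 to 114 reads), but held 0 to 10 reads in the graft and heat-shock libraries. Solyc05g025820 held 34 to 127 reads in the 4 groups that did not read Solyc05g021180, 10 and 35 in 35S:TFUL2, and 0 to 8 elsewhere. Solyc05g026590 was not read in WT of the overexpression experiment, sft or 35S:GinFT (0 to 1 read), was read in every graft and heat-shock library (10 to 70) and in 35S:SFT (28 and 36), and lay between 4 and 13 reads in the remaining groups. Solyc05g016720 was read in pSFT-SFT (26 and 28), WT of the FUL experiment (18 and 26) and 35S:SFT (18 and 39), held 3 and 1 reads in 35S:GinFT, and was at 0 in the other 12 groups. Its states thus separate 35S:GinFT from the other 3 groups that did not read Solyc05g021180. Solyc05g031600 was read in 35S:GinFT only, with 22 and 17 reads against at most 9 elsewhere.

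A further member, Solyc05g024230, had a division of its own, although too many groups were undecided for it to count among the 36. It held 207 and 202 reads in pSFT-SFT, 148 and 97 in heated pHS:FT and 143 and 121 in unheated pHS:FT. In the other libraries it held 1 to 20 reads, except for 40 in replicate 1 of unheated sft, where replicate 2 held 4. That library is the one with 12 reads of Arabidopsis FT. It was also higher for Solyc05g024010, with 429 reads against 43 to 81 in the other 7 heat-shock libraries. Between heated pHS:FT and heated sft, Solyc05g024230 was 25.6-fold higher (log2 4.65, SE 0.72, adjusted p = 0.0212). That call was lost without heated sft replicate 1 (adjusted p = 0.234), heated sft replicate 2 (0.197) or heated pHS:FT replicate 2 (0.0567). Between unheated pHS:FT and unheated sft it was not called (log2 2.81, SE 0.59, adjusted p = 0.433), with log2 4.99 (adjusted p = 0.181) without unheated sft replicate 1, and was called without unheated sft replicate 2 (log2 2.06, adjusted p = 0.035). The test of whether the pHS:FT difference changed with heat called 0 of 140 members by edgeR (12 at an unadjusted p under 0.05) and 0.0146% of all genes, 3 in number. Without unheated sft replicate 1 it called 0 members and 39 of all genes.

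Pairs of groups were then compared by the number of members read in one and not in the other. WT of the FUL experiment and WT of the overexpression experiment differed at 14 members (7.91%), while 1.46% of all genes differed between them. The libraries labelled pSFT-SFT differed from WT of their own experiment at 12 members (6.78%, against 1.11% of all genes). They differed from WT of the FUL experiment at 0 members. Of all genes 1.32%, 299 in number, differed between these groups, a share at which few members would differ in any case. Members undecided in either group do not count here. Among them are Solyc05g024230 (207 and 202 reads in pSFT-SFT against 6 and 1) and Solyc05g018880 (147 and 125 against 8 and 19). Against 35S:SFT and 35S:GinFT the libraries labelled pSFT-SFT differed at 2 members each (1.5% and 1.61% of all genes).

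35S:TFUL2 stems showed the reverse. They differed from WT of their own experiment at 13 members (7.34%, against 0.761% of all genes). From WT of the overexpression experiment they differed at 1 member (1.12% of all genes), and from WT//WT at 0 (1.13% of all genes). 35S:SFT and WT of the FUL experiment differed at 0 members (0.234% of all genes), 35S:GinFT and that WT at 2 (0.217%), and sft and WT of the overexpression experiment at 1 (0.0796%), which was Solyc05g017790. Among the 10 pairs of graft groups no pair differed at more than 1 member (0.0177% to 0.31% of all genes), and among the 6 pairs of heat-shock groups likewise (0.031% to 0.221%). All genes thus differed rarely in these pairs too. Without 35S:SFT//sp replicate 1 up to 3 members differed between graft groups (0.0177% to 0.579% of all genes), and without unheated sft replicate 1 at most 1 between heat-shock groups (0.142% to 0.469%).

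**Figure D3:**
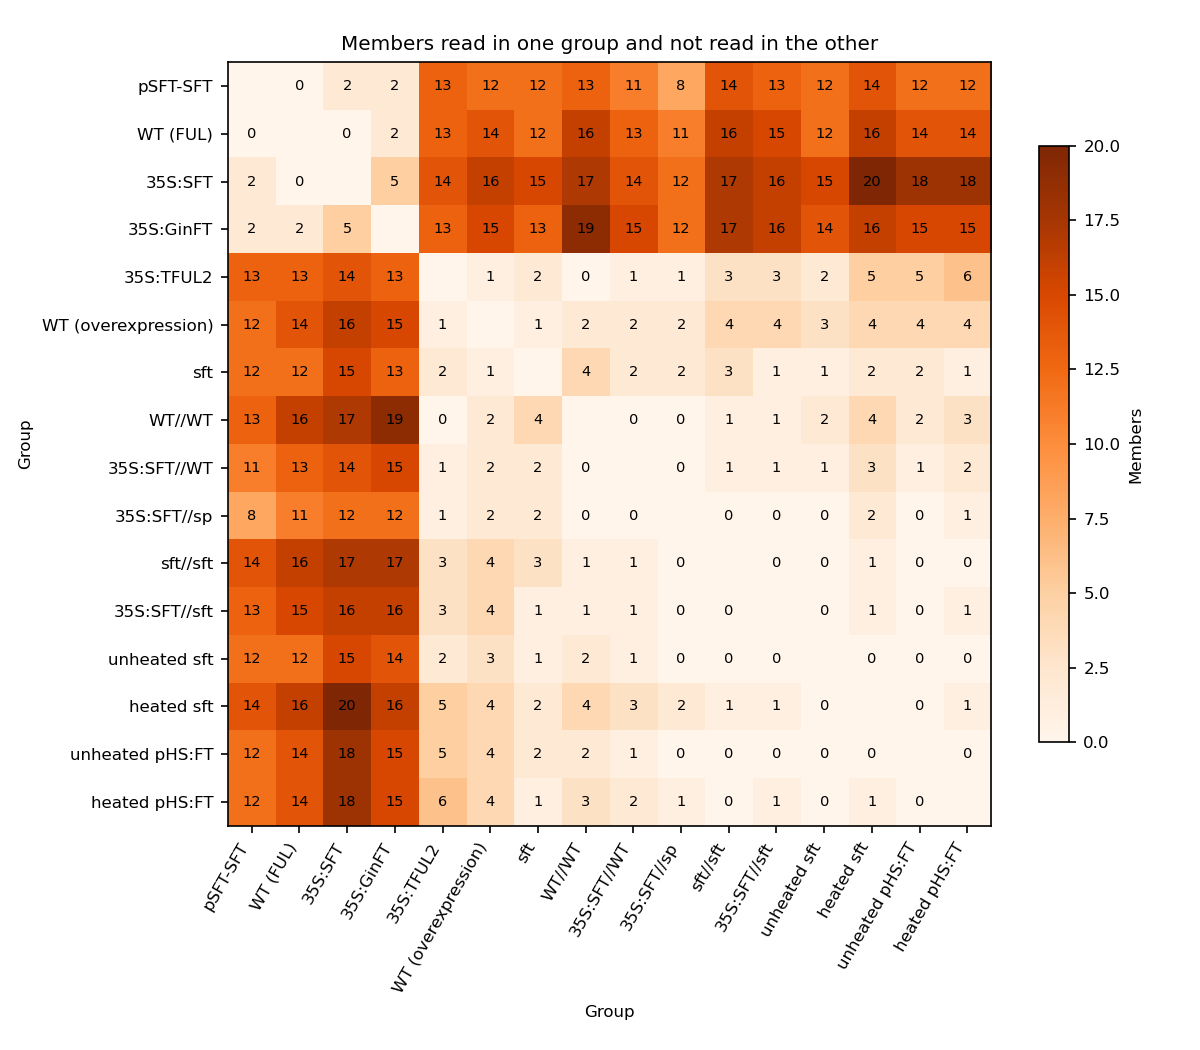
Number of the 177 members read in one group and not in the other, for each pair of the 16 groups (read: 10 or more reads in both libraries; not read: 3 or fewer in both). pSFT-SFT and WT of the FUL experiment differ at 0 members and 35S:TFUL2 and WT//WT at 0, while WT of the FUL experiment and WT of the overexpression experiment differ at 14.

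Levels were next tested over all genes of each experiment with edgeR's quasi-likelihood test, and a gene with a Benjamini-Hochberg adjusted p under 0.05 was called. Set against their own WT, the libraries labelled pSFT-SFT had 48 of 154 tested members called (31.2%, where 17.8% of all genes tested were). Of these, 20 were higher and 28 lower (9.04% and 8.75% of all genes). Fewer members were called when any library of either group was left out. Such a refit leaves that group without a replicate, so the fall does not single out a library. The median log2 fold change of the members was -0.02, and that of all genes tested was 0.00. Changes of 8-fold or more (log2 of 3) were called at 18 members, 11.7%, against 1.64% of all genes.

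The named members of this comparison show both kinds of change. Solyc05g021180 (0 and 0 reads against 283 and 276) was at least 75.5-fold lower in the libraries labelled pSFT-SFT (adjusted p = 0.000332). Solyc05g032670 (0 and 0 against 247 and 224) was at least 63.4-fold lower (adjusted p = 0.000322). Among members read in all 16 groups, Solyc05g018130 stood at 10.7 ± 0.807 CPM (SD, n = 2) against 2.42 ± 0.429 CPM in WT and was 4.44-fold higher (log2 2.14, SE 0.18, adjusted p = 0.00138). Solyc05g016380 rose 1.67-fold (log2 0.73, SE 0.12, adjusted p = 0.0116), a call lost without pSFT-SFT replicate 1 (adjusted p = 0.0543) or WT replicate 2 (0.069). Of the 108 members read everywhere, 24 were called (22.2%) and 7 of these changed by log2 1 or more (6.48%), beside 16.6% and 5.03% of the 18154 genes over all chromosomes that were read in every group. The largest change was that of Solyc05g025890 (288 and 225 reads against 44 and 59, log2 2.59, SE 0.26, adjusted p = 0.00252).

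In 35S:TFUL2 against WT of the FUL experiment, 34 of 156 members were called (21.8%, against 12.7% of all genes). The 24 higher and 10 lower members stand beside 7.46% and 5.28% of all genes. Far fewer were called without either 35S:TFUL2 library, while a refit without a WT library called nearly as many as before. Each such refit leaves a group without a replicate. The median log2 fold change was 0.00 for the members and 0.01 for all genes tested. Log2 changes of 3 or more were called at 17 members, 10.9%, against 1.19% of all genes. Solyc05g016250 held 366 and 375 reads against 0 and 0 in WT and was at least 119-fold higher (adjusted p = 0.00297). Solyc05g032830 held 0 and 0 against 137 and 178 and was at least 53.4-fold lower (adjusted p = 0.00187). Solyc05g024160, read in every group, rose from 104 and 139 reads to 309 and 378 (log2 1.49, SE 0.12, adjusted p = 0.00359). Solyc05g021390 fell from 324 and 816 reads to 38 and 73 (log2 -3.32, SE 0.58, adjusted p = 0.0228). The last call was lost without 35S:TFUL2 replicate 1 (adjusted p = 0.122) or 2 (0.112).

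The directions in these comparisons were mostly opposite. They share no library, since each used the WT of its own experiment. Among 146 members tested in both, 45 were called in pSFT-SFT and 32 in 35S:TFUL2, and 22 were called in both (48.9% and 68.8%). Of these 22 members, 21 moved in opposite directions and 1 in the same direction. Over the 20412 other genes tested in both, 939 were called in both, 493 in opposite and 446 in the same direction. Pearson's r between the log2 fold changes was -0.93 over the 146 members and -0.32 over the other genes, given as a description, since genes are not independent replicates and the members at 0 reads carry the largest values.

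Solyc05g018880 shows intermediate levels rather than a presence or absence. It held 8 to 19 reads in WT of the FUL experiment, 35S:SFT and 35S:GinFT, 119 to 147 in pSFT-SFT and 35S:TFUL2, and 236 to 501 in the other 11 groups. The libraries of these 3 sets of groups did not overlap. It was lower in WT of the FUL than in WT of the overexpression experiment (8 and 19 reads against 465 and 341, log2 -4.49, SE 0.23, adjusted p = 6.17e-06). Against the WT of its experiment, pSFT-SFT was lower (log2 -1.25, SE 0.14, adjusted p = 0.00322) and 35S:TFUL2 higher (log2 3.22, SE 0.32, adjusted p = 0.00577).

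Direct comparison of both WT groups called 88 of 167 members (52.7%, against 46.1% of all genes). In the WT of the FUL experiment 50 were higher and 38 lower (23.9% and 22.2% of all genes). These groups belong to different experiments by their labels, so the experiment and the plants used cannot be told apart. The median log2 fold change was 0.09 for the members and 0.03 for all genes. Changes of log2 3 or more were called at 20 members, 12%, against 3.7% of all genes. Solyc05g016250 (0 and 0 reads against 537 and 416) was at least 119-fold lower in the WT of the FUL experiment (adjusted p = 1.1e-05). Solyc05g021390 (324 and 816 against 123 and 83, log2 2.82, SE 0.47, adjusted p = 0.00138) and Solyc05g024010 (443 and 647 against 177 and 120, log2 2.28, SE 0.13, adjusted p = 9.94e-06) were higher there.

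Next come 35S:SFT and 35S:GinFT, which lay on the same side of the arrangement as WT of the FUL experiment. 35S:SFT against WT of the FUL experiment called 1 of 156 members (0.641%, against 1.74% of all genes). Log2 changes of 3 or more were called at 0 members (0.314% of all genes). The called member was Solyc05g024160 (233 and 251 reads against 104 and 139, log2 0.92, SE 0.12, adjusted p = 0.0341), a call lost without WT replicate 2 or either 35S:SFT library (adjusted p 0.0684 to 0.203), while 5 members were called without WT replicate 1. 35S:GinFT against the same WT called 10 of 157 (6.37%, against 6.24% of all genes), 4 higher and 6 lower (2.55% and 3.69% of all genes). Log2 changes of 3 or more were called at 2 members, 1.27%, against 0.294% of all genes. Few or none were called without either 35S:GinFT library or without WT replicate 1, and nearly as many as before without WT replicate 2. Each such refit leaves a group without a replicate. Since 35S:SFT, 35S:TFUL2 and 35S:GinFT were each set against the same WT libraries, these comparisons are not independent.

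The 2 members called for 35S:GinFT with a log2 change of 3 or more fell outside the limits of level or overlap set for naming. The members named for this comparison changed by less than 2-fold. Solyc05g018410 (379 and 530 reads against 902 and 979, log2 -0.89, SE 0.17, adjusted p = 0.0326) and Solyc05g024160 (68 and 47 against 104 and 139, log2 -0.89, SE 0.19, adjusted p = 0.0428) were lower. Solyc05g026240 (2948 and 2898 against 1870 and 2459, log2 0.61, SE 0.09, adjusted p = 0.0138) and Solyc05g024010 (692 and 683 against 443 and 647, log2 0.53, SE 0.08, adjusted p = 0.0166) were higher. Each of these 4 calls was lost without 35S:GinFT replicate 1 (adjusted p 0.053 to 0.132), and Solyc05g024160 in every such refit.

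The 7 remaining comparisons called 2 members in all. In sft against WT, 0 of 154 members were called by edgeR (0.0568% of all genes; 9 members at an unadjusted p under 0.05, 1 member in DESeq2), and none with a log2 change of 3 or more (0.0189% of all genes). The sft//sft grafts against WT//WT called 0 of 155 (0.00927% of all genes; 11 unadjusted, 1 in DESeq2), and 35S:SFT//WT against WT//WT 0 (0.0139%; 3 unadjusted, 0 in DESeq2). 35S:SFT//sp against 35S:SFT//WT called 0 (0.00464%; 8 unadjusted, 1 in DESeq2), and 0 also without 35S:SFT//sp replicate 1. Unheated pHS:FT against unheated sft called 0 of 140 (0% of all genes; 11 unadjusted, 2 in DESeq2). Heat in sft plants called 0 (0.0973% of all genes; 7 unadjusted, 0 in DESeq2). Without unheated sft replicate 1 both of these also called 0. Heated pHS:FT against heated sft called 2 of 140 (1.43%, against 2.39% of all genes), Solyc05g024230 and Solyc05g018210 (3511 and 2525 reads against 2359 and 2521, log2 0.51, SE 0.09, adjusted p = 0.0379). That second call was lost without either heated sft library or heated pHS:FT replicate 1 (adjusted p 0.0552 to 0.31), and 0 to 6 members were called when each of the 4 libraries was left out in turn.

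**Figure D4:**
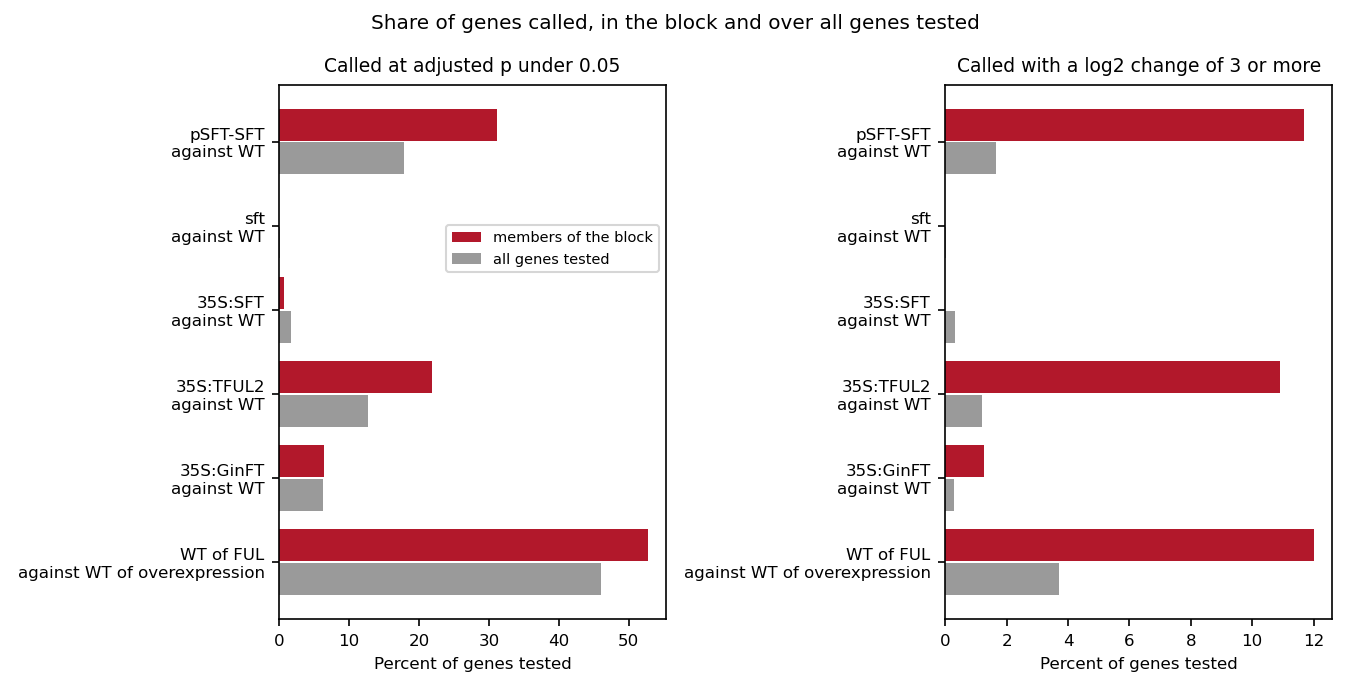
Percent of tested genes called at an adjusted p under 0.05 (left) and called with a log2 change of 3 or more (right), for members of the block and for all genes tested, in 6 comparisons. In pSFT-SFT against WT the bars stand at 31.2% and 17.8% on the left and at 11.7% and 1.64% on the right, and in sft against WT the block has no bar.

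Runs of neighbouring members with a shared pattern were short. The 36 switching members held 31 different sets of states over the 16 groups, and of the 35 pairs that follow each other in this list none had the same state in every group. Undecided counted as a state of its own, which makes this a strict measure. Solyc05g021180 and Solyc05g021500 follow each other and differed only where the latter was undecided, in heated pHS:FT (9 and 9 reads) and unheated pHS:FT (4 and 7). Of the 35 pairs, only 7 were next to each other among all members. The switching members were then reduced to the arrangement of Solyc05g021180 or its mirror, where decided. The longest stretch ran from Solyc05g021140 to Solyc05g021510 and held 5 switching members. Another from Solyc05g032670 to Solyc05g032830 held 3. Solyc05g021140 in the longest stretch and Solyc05g032710 in the other were decided in few groups. In the longest stretch, Solyc05g021390 lay between Solyc05g021180 and Solyc05g021500 and was read in every library (28 to 931 reads). A further 3 stretches of 2 began at Solyc05g018770, Solyc05g023910 and Solyc05g025730.

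Runs of 3 or more consecutive tested members called in the same direction numbered 4 in pSFT-SFT against WT. They were Solyc05g021150 to Solyc05g021500 (lower, 4 members), Solyc05g021510 to Solyc05g021540 (higher, 3), Solyc05g025790 to Solyc05g025810 (lower, 3) and Solyc05g025820 to Solyc05g025890 (higher, 3). Each pair of runs thus meets at a change of sign between neighbouring identifiers. Solyc05g025810 (420 and 352 reads against 878 and 615, log2 -0.64, SE 0.11, adjusted p = 0.0124) lies beside Solyc05g025820 (65 and 65 against 6 and 5, log2 3.84, SE 0.31, adjusted p = 0.00119). 35S:TFUL2 against WT had 2 runs, Solyc05g016180 to Solyc05g016230 and Solyc05g025790 to Solyc05g025810, both higher. The latter is the run that was lower in pSFT-SFT.

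How often called neighbours shared a sign was also counted inside and outside the block. In pSFT-SFT against WT, 12 of 18 pairs of neighbouring called members had the same sign (66.7%), against 67.4% of 803 such pairs elsewhere. In 35S:TFUL2 it was 6 of 10 (60%, against 72.1% of 456 pairs), and between both WT groups 26 of 49 (53.1%, against 58.4% of 4877 pairs). At an adjusted p under 0.01 the shares were 3 of 3 pairs (100%, against 76.7% of 120) for pSFT-SFT, 0 of 1 (against 96% of 25) for 35S:TFUL2 and 15 of 23 (65.2%, against 59.6% of 2050) between both WT groups. The block thus lay below or above the rest depending on the comparison and the threshold, and the difference was not tested. Pearson's r of log2(CPM + 0.5) between neighbouring members over the 12 groups of the first table had a median of 0.05 over 176 pairs, against 0.12 over 22420 pairs elsewhere. Over the 4 heat-shock groups it was -0.07 over 169 pairs, against 0.11. These correlations share libraries and depth and are descriptions.

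Along the chromosome, large changes were densest in and next to the block, whose position was proposed with results of these libraries known. In pSFT-SFT against WT, log2 changes of 3 or more were called at 1.16% of 690 genes with identifiers below Solyc05g016000, at 7.69% of 65 members up to Solyc05g018999 and at 13.7% of 73 up to Solyc05g026999. Of the 16 members tested from Solyc05g027000 on, 3 had such a change. Beyond the block the share was 5.49% of 91 genes up to Solyc05g049999 and 1.43% of 491 genes from Solyc05g050000 on. In 35S:TFUL2 against WT the corresponding shares were 1.14%, 8.82%, 12.3%, then 2 of 15 members, then 7.92% and 0%. The upper limit of the block therefore does not mark the end of these changes, since the next window held a share above that of all genes in both comparisons (1.64% and 1.19%).

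**Figure D5:**
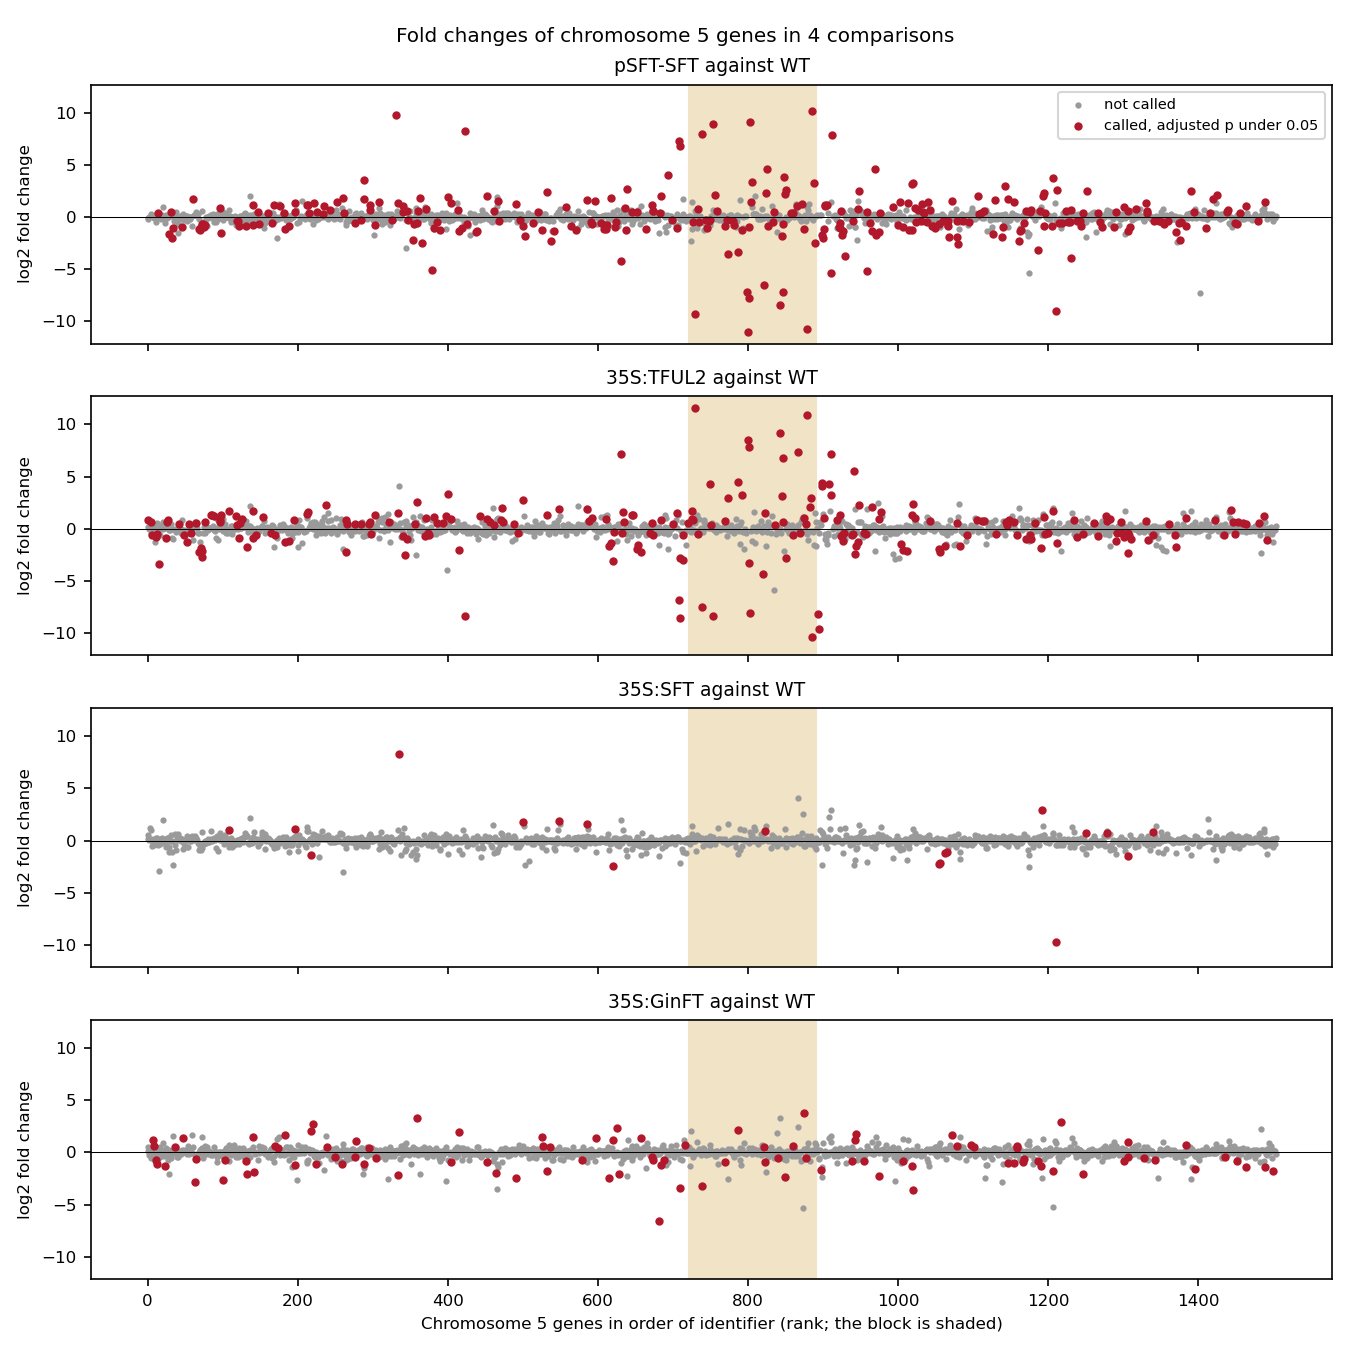
Log2 fold changes of chromosome 5 genes in order of identifier (x axis: rank; block shaded) in 4 comparisons, with called genes in red. Within the shading pSFT-SFT and 35S:TFUL2 show large changes of opposite sign, such as Solyc05g032670 with 0 reads in pSFT-SFT and 221 and 243 in 35S:TFUL2, while 35S:SFT has 1 called member and 35S:GinFT has 10.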

How the data were processed

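Stem RNA of 32 samples was read as single 50 bp reads from TruSeq v2 libraries, a kit that does not mark strand, per the labels' protocols. The authors deposited whole-number counts per gene, in 1 table of 34728 rows and a heat-shock table of 34825 rows (96 of them microRNAs). Per the submitters' processing notes, the tools were HTSeq 0.6.1, TopHat2 2.1.0 with Bowtie2 2.2.6, Trim Galore and FastQC 0.11.5, with settings and genome build not given in the sources used here. No coordinates are therefore printed, and reads of overlapping, antisense or near-identical genes cannot be told apart. The RefSeq table matched 0 identifiers. All per-sample columns were used.

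Groups came from titles and genotype labels. Samples titled pTFT carry the label pSFT-SFT (used), those titled sft carry SFT (the title was used), and for grafts titled sft//wt the genotype label, sft//sft, was followed. Members and gene lists were chosen with earlier results of these data known. Both libraries of a group differed by more than sampling noise (chi-square per degree of freedom 7.26 to 47.6 over genes with 100 or more reads).

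The deposited counts were tested in R 4.3.3 with edgeR 4.0.16 (glmQLFit, glmQLFTest, two-sided, TMM, filterByExpr with a minimum count of 10 and a total of 15), fitted to all groups of an experiment. The fit for 35S:GinFT held the FUL and Ginkgo groups, and that of both WT groups the overexpression and FUL groups. P-values were adjusted over all genes of each of 12 comparisons. CPM were normalised by TMM within each table. A fold against a group at 0 is a bound that sets each of its libraries to 3 reads. SE is the log2 fold change over the square root of F. Alternatives were DESeq2 1.42.0 and its size factors, no filter, only the groups compared, a replicate block, other read minimums and leaving out libraries. On simulated counts for 35S:SFT against WT (21196 genes), 100 of 100 genes changed 4-fold and 68 of 100 changed 2-fold were called, 0 with the wrong sign, with 9 unchanged genes called. The changed genes were drawn only from those with a simulated mean above 100 reads, and all genes were given the same spread. These rates therefore do not cover members read at lower levels. Named members are up to 2 rises and 2 falls per comparison with the largest called change (mean log2 CPM at least 2, no overlap between libraries of both groups), the 12 switching members with the highest group mean, the ends of runs and limits, and Solyc05g016250 and Solyc05g021180. Members named beside these (Solyc05g016720, Solyc05g017790, Solyc05g018060, Solyc05g018850, Solyc05g018880, Solyc05g023910, Solyc05g024230, Solyc05g026590 and Solyc05g031600) were chosen after their values were seen.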

Additional observations from a re-analysis of the deposited data

How the results depend on the processing

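Of the alternative values for 32 single members and comparisons, 0 turned the direction, 37 lost a call, 5 gained one and the other 247 kept both. The number of switching members was 36, and 25 with a minimum of 20 reads, 10 with 2 CPM, 22 where only 0 reads count as not read, 53 without replicate 1 or without replicate 2 of every group, 32 in the first table alone and 30 without the heat-shock and Ginkgo experiments. Without the libraries labelled pSFT-SFT it was 36, without unheated sft replicate 1 it was 38 and without 35S:SFT//sp replicate 1 it was 40, each holding the same 36 members. These 3 settings and that without heat-shock and Ginkgo libraries were chosen after seeing the data, as was the refit of the heat by pHS:FT test without unheated sft replicate 1, which called 0 members as before. At an adjusted p under 0.01 the runs in pSFT-SFT against WT fell from 4 to 1. The cause of these shifts was not tested.

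Leaving out each library in turn gave 24 to 30 called members for pSFT-SFT, 9 to 33 for 35S:TFUL2, 0 to 9 for 35S:GinFT, 0 to 5 for 35S:SFT, 66 to 77 for both WT groups, 0 to 1 for sft, 0 to 2 for unheated pHS:FT, 0 to 6 for heated pHS:FT and 0 to 1 for heat in sft plants. Only libraries of the pair of groups compared were left out, not those of other groups in the fit. In these fits the lone library of a group is assumed to vary like the others. When a fit held just the pair of groups compared, 35S:SFT and 35S:GinFT each had 0 called members and heated pHS:FT 1. DESeq2 called 2 members for 35S:SFT, 5 for heated pHS:FT, 2 for unheated pHS:FT and 1 each for sft, sft//sft and 35S:SFT//sp. Without a filter on low counts sft had 1 and 35S:SFT 2.

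Shared replicate numbers did not pair the libraries in a uniform way. The correlation of same-numbered libraries' deviations was 0.048 to 0.341 in the overexpression and 0.024 to 0.179 in the FUL experiment. It was -0.61 to 0.51 in the graft and -0.22 to 0.31 in the heat-shock experiment. By their sample numbers the graft libraries fall into an earlier and a later set. In these sets the replicate numbers of 35S:SFT//sp run opposite to those of the other groups. The graft values therefore cannot show whether libraries of the same set belong together. The replicate block below goes by replicate number and so crosses these sets in the graft experiment. With the number as a replicate block, 50 members were called for pSFT-SFT, 28 for 35S:TFUL2, 89 for both WT groups, 3 for 35S:GinFT, 0 for 35S:SFT and 1 for heated pHS:FT, with 0 in the other comparisons. Depth limits what was read: 19 switching members peaked under 1 CPM, where 10 reads and 3 reads differ little.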
